A study of Mus musculus with 2 samples.

Results

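Type IIx myonuclei, the nuclei of fast fibres that make the myosin heavy chain Myh1, were described here in quadriceps, the extensor muscle of the thigh, by single-nucleus RNA sequencing. A nucleus was taken when it had at least 3 unique molecular identifiers (UMIs, counts of captured RNA molecules) over Myh1, Myh2, Myh4 and Myh7 and Myh1 made up at least 80% of them. It also had to carry at most 1 UMI over the stress-inducible genes Nr4a1, Nr4a2 and Nr4a3 and none over 9 genes of other cell types (Dcn, Pdgfra, Fbn1, Mrc1, F13a1, Pparg, Acvr1c, Flt1 and Notch3). The nuclei were thus chosen by their own UMIs of these genes, and none of these genes is a finding here. The rule found 621 of 18040 nuclei with at least 200 detected genes, 444 of 10274 in the wild-type (WT) library and 177 of 7766 in the knockout library. The WT mice and the PTRF knockout mice were both C57BL/6N and 3 months old. PTRF is the older name of Cavin1, a coat protein of caveolae, the small pits of the plasma membrane. Each genotype had 1 library. Its nuclei share that library, biological spread could not be measured, and the genotypes were therefore compared by size and counting error without a test. The number of mice behind a library, their sex, the deleted part of the gene and the tissues it was deleted in are not stated in the labels.

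Skeletal muscle fibres are long cells with many nuclei, and each fibre is classed by the myosin heavy chain that sets its speed of contraction. Type IIx fibres use Myh1, and in mice they stand between the more oxidative type IIa fibres, which use Myh2, and the fastest and most glycolytic type IIb fibres, which use Myh4. These genes lie side by side in 1 cluster, and fibres shift between neighbouring types with innervation, load, hormones and disease.

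The rule turns on which of 3 neighbouring promoters was active, so their sequences are shown first. Each runs from 250 bases before to 20 bases after the annotated start, on the plus strand of chromosome 11, as RefSeq gives it for GRCm38.p6. They lie at chr11:67199852-67200121 for Myh1, chr11:67237562-67237831 for Myh4 and chr11:67170777-67171046 for Myh2. Capitals mark matches to TATAAAA and to the consensus of MEF2, a family of muscle transcription factors.
Myh1: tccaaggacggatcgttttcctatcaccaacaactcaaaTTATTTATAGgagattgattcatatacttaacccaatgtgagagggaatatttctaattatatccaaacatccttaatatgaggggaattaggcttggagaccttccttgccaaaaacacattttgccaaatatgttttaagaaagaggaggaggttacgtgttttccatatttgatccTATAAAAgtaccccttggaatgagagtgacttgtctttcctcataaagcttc
Myh4: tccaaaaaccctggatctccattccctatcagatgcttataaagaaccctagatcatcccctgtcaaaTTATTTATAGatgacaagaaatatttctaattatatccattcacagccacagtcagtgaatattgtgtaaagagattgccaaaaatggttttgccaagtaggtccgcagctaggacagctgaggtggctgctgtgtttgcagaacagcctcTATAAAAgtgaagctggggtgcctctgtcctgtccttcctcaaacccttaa
Myh2: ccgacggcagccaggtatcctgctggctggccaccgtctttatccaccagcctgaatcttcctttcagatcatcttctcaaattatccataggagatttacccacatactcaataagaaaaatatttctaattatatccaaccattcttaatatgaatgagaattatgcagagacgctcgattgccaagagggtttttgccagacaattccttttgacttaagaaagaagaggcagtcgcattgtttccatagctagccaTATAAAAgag
The Myh1 promoter held TATAAAA 32 bases and the MEF2 consensus 211 bases before its start. The Myh4 promoter held the same 2 motifs, at 31 and 182 bases before its start. It also held a CArG box, the motif of serum response factor, at 104 bases before it, and 2 E-boxes (CANNTG, the motif of MyoD and its relatives) at 221 and 67 bases. The Myh2 window held TATAAAA only, beginning 10 bases after the annotated start. The half-site of large Maf factors (TGCTGA) was found in none of the 3. Searched on both strands, and with overlaps between motifs allowed, TATAAAA was present in 5.21% of 32851 promoters of this length, the MEF2 consensus in 3.02%, the CArG box in 1.53%, the E-box in 68.9% and TGCTGA in 17.5%. These matches describe letters only.

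The nuclei carried the general transcripts of muscle fibres. All 8 pan-myonuclear markers (Ttn, Neb, Ckm, Dmd, Ryr1, Acta1, Tnnt3 and Mybpc1) were detected, and every one of the 444 and 177 nuclei held at least 2 of their UMIs. Their summed level was 99170 UMIs scaled to a total of 1000000 (CPM) in the WT and 93691 CPM in the knockout library. Nuclei with at least 2 UMIs of the 9 excluded genes carried these transcripts too, at 48213 CPM (WT library) and 20367 CPM (knockout library). Holding 2 of these UMIs therefore does not by itself set a fibre nucleus apart. Fibro-adipogenic markers summed to 28.0 CPM in the WT and 39.8 CPM in the knockout library, against 2223 and 1591 CPM in nuclei with at least 2 UMIs of the 9 excluded genes. The rule fixed part of this contrast in advance. Dcn, Pdgfra and Fbn1 of this list were at 0 in the members by the rule, and the other nuclei were chosen by the same excluded genes. Mrc1, F13a1, Flt1 and Notch3 of the macrophage, blood endothelial and mural lists were likewise at 0 by the rule. In the 13 marker lists, Adipoq and Lep of adipocytes, Cdh5 and Kdr of blood vessels, Rgs5 of mural cells, Cd3e of T cells, Vcam1 of satellite cells and Sox10 of Schwann cells were at 0 UMIs in both libraries. Satellite cell markers reached 7.79 and 5.69 CPM, Schwann markers 17.1 and 14.2 CPM, lymphatic endothelial markers 7.79 and 2.85 CPM and blood endothelial markers 34.3 and 51.2 CPM. In the knockout the blood endothelial and lymphocyte lists stood above their levels in Myh4-only nuclei (12.8 and 36.7 CPM), with UMIs in 5 and 13 nuclei, and their part in the results was not tested. Macrophage, lymphocyte and mural lists stood at 153, 76.3 and 203 CPM in WT and at 165, 134 and 290 CPM in the knockout. The adipocyte list stood at 2125 and 3253 CPM, against 2374 and 3513 CPM in Myh4-only nuclei. Its genes Pparg and Acvr1c were at 0 by the rule, and Adipoq and Lep, which the rule did not use, had no UMI in either library. Plin1 and Fasn had 0 UMIs in WT and 1 each in the knockout. At least 2 UMIs of neuromuscular junction markers were found in 12 WT and 7 knockout nuclei, and of myotendinous junction markers in 10 and 4.

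Depth differed between the libraries. Over all nuclei the WT median was 703 UMIs and the knockout median 1562. In Myh1-only nuclei it was 1083.5 (range 411 to 6899) and 1582 (744 to 5301), with medians of 588 and 841 detected genes. Their UMIs summed to 641836 in WT and 351345 in the knockout. Rn18s, a ribosomal RNA, took 5.69% and 2.66% of these sums, and Malat1, a nuclear noncoding RNA, 8.56% and 6.01%. The libraries shared 24 barcodes, of which 0 belonged to Myh1-only nuclei. All 178 WT nuclei of this kind that could be sexed carried Y-linked UMIs and no Xist. In the knockout 63 carried Y-linked UMIs alone, 34 Xist alone and 5 both, so that library held nuclei of both sexes. Among the 178 sexed WT nuclei the exact upper limit of the Xist-marked share was 2.05%. Cavin1 itself was too rare in these nuclei to check the genotype, with 3 UMIs in WT and 0 in the knockout, where 3 UMIs would be 8.54 CPM. In Myh4-only nuclei, which met the same clauses with Myh4 at 80% or more, Cavin1 was at 5.88 CPM in the WT and 0 CPM in the knockout library.

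Within the chosen nuclei Myh1 supplied 3216 of 3365 isoform UMIs in WT (95.6%) and 1252 of 1277 in the knockout (98.0%), values that the rule itself fixed. Each nucleus had from 3 to 38 Myh1 UMIs in WT (median 5) and from 3 to 31 in the knockout (median 6). Myh1 was the only isoform in 324 of 444 and 154 of 177 nuclei. The edge of the rule was well filled. Just inside it, 90 WT and 31 knockout nuclei had exactly 3 isoform UMIs, and 95 and 16 had a Myh1 share from 80% to below 90%. Just outside it, 115 and 35 nuclei had 2 isoform UMIs that were both Myh1, and 63 and 10 had a share from 70% to below 80%. Free RNA can give myosin UMIs in nuclei that do not make them. Among nuclei with at least 2 UMIs of the excluded genes, 14.6% of 328 in WT (median depth 782 UMIs) and 5.69% of 1423 in the knockout (median 1353) held a Myh1 UMI, and 51.8% and 25.4% a Myh4 UMI. Whether these UMIs came from free RNA or from fibre nuclei in that group was not tested.

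Myh1-only nuclei made up 9.96% of typed nuclei in WT (444 of 4458, exact 95% Clopper-Pearson interval 9.10 to 10.9) and 5.84% in the knockout (177 of 3029, 5.03 to 6.74), where typed nuclei are those with 3 isoform UMIs that met the other clauses. Intervals here and below cover counting error only. In the same libraries Myh4-only nuclei made up 66.8% and 83.4%, Myh2-only nuclei 5.29% and 3.37%, and nuclei with mixed isoforms 17.9% and 6.60%. The lower share of Myh1-only nuclei moved with the Nr4a clause. That clause removed 16 of 460 otherwise eligible nuclei in WT (3.48%, 2.00 to 5.59) but 178 of 355 in the knockout (50.1%, 44.8 to 55.5). In the knockout it removed smaller shares of the other kinds, with 3.28% and 24.3% of Myh4-only and 2.48% and 22.1% of Myh2-only nuclei in the 2 libraries. Without the clause the shares were 9.99% (9.14 to 10.9) and 8.55% (7.72 to 9.44). With every nucleus thinned to 500 UMIs before the rule they were 9.49% (213 of 2245, 8.31 to 10.8) and 9.02% (96 of 1064, 7.37 to 10.9), after 2055 WT and 0 knockout nuclei were left out as too shallow. The shares lay further apart among Y-marked nuclei, at 12.1% (178 of 1471) and 4.08% (63 of 1544), as the plot of shares under each definition shows. The share of Xist-marked nuclei in the knockout also differed by kind, at 35.1% of the sex-marked Myh1-only, 13.6% of the Myh4-only and 41.5% of the Myh2-only nuclei. Sex and genotype could therefore not be told apart in the whole set, and how far depth, sex and the Nr4a clause set the shares was not tested.

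**Figure D1:**
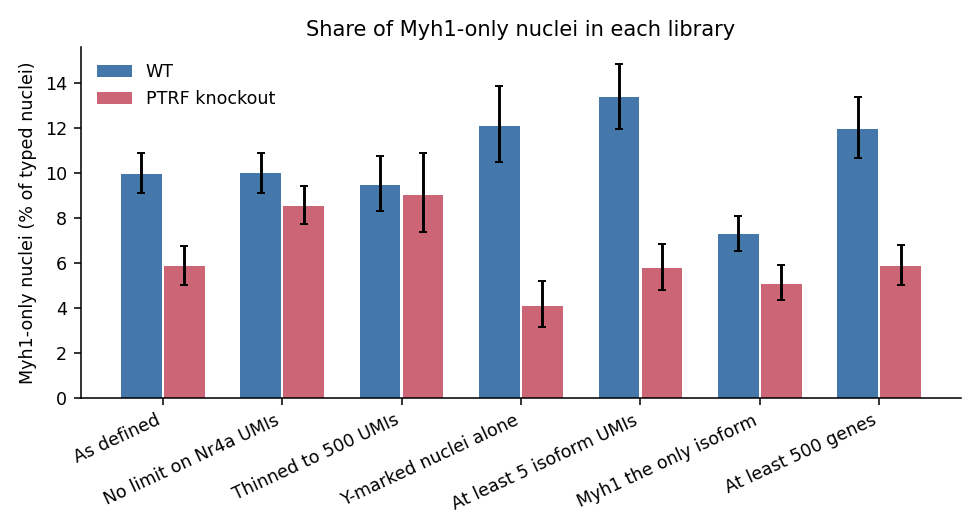
Myh1-only nuclei as a percentage of typed nuclei (y axis) in the WT and the PTRF knockout library under 7 definitions (x axis). Bars start at 0 and error bars are exact 95% intervals. As defined, the bars stand at 9.96% and 5.84%, and after thinning to 500 UMIs at 9.49% and 9.02%.

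The myosin cluster also held noncoding transcripts that the rule did not use, and they differed by kind of nucleus. Myhas (ENSMUSG00000085348), an antisense RNA that runs from just before Myh4 back into Myh1 (chromosome 11, 67211256 to 67237573, minus strand, GRCm38), was at 42.1 CPM in the WT and 19.9 CPM in the knockout Myh1-only nuclei. In Myh4-only nuclei it was at 365 and 289 CPM, and in Myh2-only nuclei at 28.7 and 15.3 CPM. Thus the antisense transcript was low where Myh1 or Myh2 was the isoform in use and high where Myh4 was. The transcript 9430073C21Rik (67195680 to 67199234, minus strand), whose upper end lies just before the start of Myh1, was at 12.5 and 48.4 CPM in Myh1-only nuclei (8 and 17 UMIs) and at 2.35 and 2.84 CPM in Myh4-only nuclei. In Myh2-only nuclei it was at 5.73 and 5.09 CPM. The noncoding gene 2310065F04Rik, further along the cluster, was at 17.1 and 31.3 CPM in Myh1-only and 42.6 and 34.4 CPM in Myh4-only nuclei. Myhas overlaps Myh1, and 9430073C21Rik overlaps Myh2, on the opposite strand. The labels do not state whether strand was used in counting, so UMIs of overlapping genes cannot be fully told apart. The embryonic and neonatal chains Myh3 and Myh8 had 0 UMIs in Myh1-only nuclei of both libraries.

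**Figure D2:**
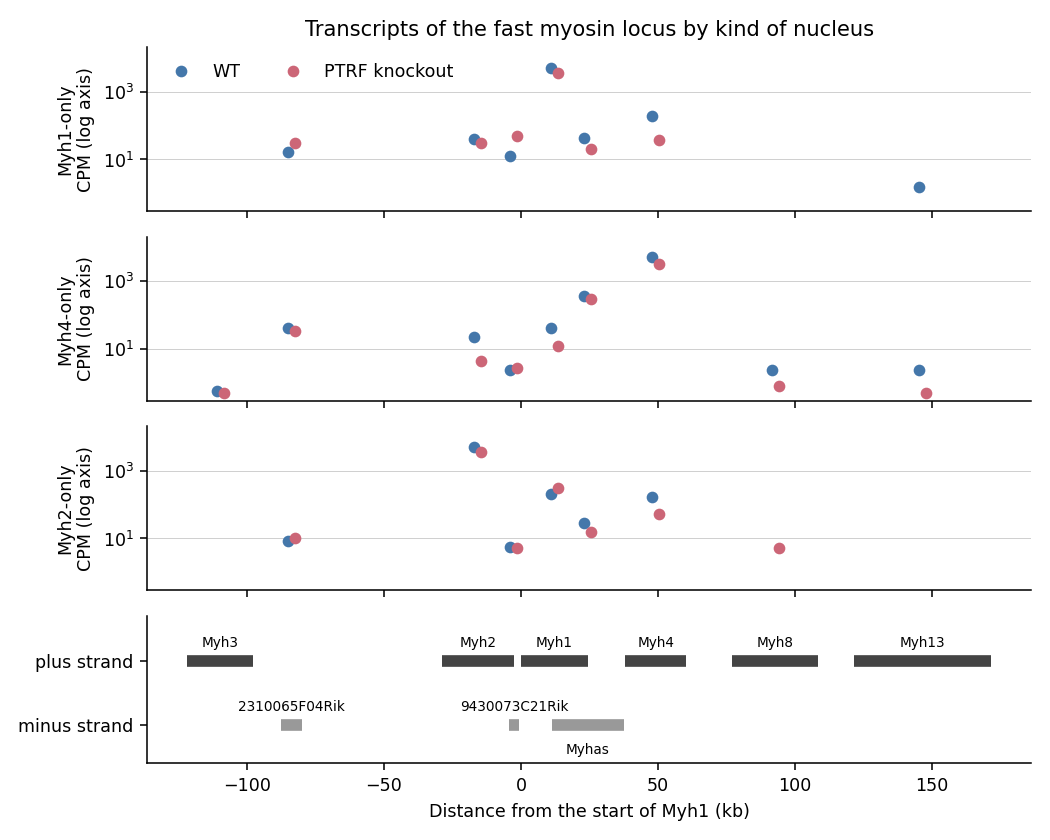
Levels of the genes of the fast myosin cluster (points, CPM on a log axis) in Myh1-only, Myh4-only and Myh2-only nuclei of the WT and knockout libraries, against distance from the start of Myh1 in kb. Genes at 0 CPM have no point, the lowest panel shows each gene's extent and strand, and Myhas stands at 42.1 and 19.9 CPM in Myh1-only but at 365 and 289 CPM in Myh4-only nuclei.

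Against type IIb nuclei of the same library, Myh1-only nuclei had higher levels of 11 of 24 measured genes of fatty acid use and 18 of 46 of oxidative phosphorylation, and lower levels of 9 of 15 fast contractile genes, counting genes called in both libraries. A gene was called when its ratio was at least 1.5-fold with an exact conditional 95% interval that excluded no difference, in the same direction in both libraries. Of 8433 genes with at least 20 UMIs over both kinds of nuclei in each library, 860 (10.2%) were called, 516 (6.12%) higher and 344 (4.08%) lower in Myh1-only nuclei. With totals scaled by the median ratio over genes instead, the split was 394 higher and 464 lower. All log2 ratios have 0.5 UMI added to each sum.

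The genes highest over Myh4-only nuclei were led by Ankrd2, a stretch-responsive protein of the sarcomere, at 167 CPM in WT and 54.1 CPM in knockout Myh1-only nuclei. Its log2 ratios over Myh4-only nuclei were 4.05 (3.49 to 4.66) and 5.13 (3.96 to 6.50). Fhl1, a LIM-domain protein of muscle, followed at 457 CPM in WT (log2 ratio 3.92) and at 521 against 20.2 CPM in the knockout (4.69). Atp1b1, a subunit of the sodium-potassium pump, was at 455 against 37.1 CPM in WT and 404 against 16.9 CPM in the knockout. Cd36, which takes up fatty acids, had 1600.1 against 122 CPM in WT and 1284 against 108 CPM in the knockout, near the same ratio in both (3.71 and 3.57). Ldhb, the lactate dehydrogenase subunit of oxidative tissue, rested on few UMIs (18 and 23), with log2 ratios of 3.53 (2.30 to 4.99) and 6.19 (4.87 to 8.05). The Z-disc protein Actn2 was at 3013 against 282 CPM and 2926 against 153 CPM. Dapp1, Ccdc85a, Lmcd1 and Alpl completed the 10 highest, with log2 ratios from 3.31 to 5.68 over the 2 libraries. This ranking does not set Myh1-only apart from Myh2-only nuclei. Ankrd2, Fhl1, Ldhb, Actn2 and Lmcd1 had higher CPM in Myh2-only than in Myh1-only nuclei of both libraries. Myh2-only levels of Ankrd2 were 654 (WT) and 163 CPM (knockout), and those of Ldhb 120 and 127 CPM. For Atp1b1, Cd36, Dapp1, Ccdc85a and Alpl the order of these kinds differed between the libraries.

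In the other direction stood Actn3, the Z-disc protein of the fastest fibres, at 54.5 against 550 CPM in WT and 37.0 against 443 CPM in the knockout. The adhesion molecule Cadm1 was the lowest by the ranking, at 43.6 against 622 CPM and 93.9 against 1348 CPM, with log2 ratios of -3.81 and -3.82. Sorbs2, an adaptor protein of the actin cytoskeleton, was at 122 against 1009 CPM in WT and 128 against 1426 CPM in the knockout. Acsl3, which activates fatty acids, was at 6.23 against 80.6 CPM and 22.8 against 376 CPM, from 4 and 8 UMIs. Chac1, which breaks down glutathione, had 1 UMI in WT (log2 ratio -2.86, -8.76 to -0.89) and 0 in the knockout, at least 2.50-fold lower there with a floor of 3 UMIs over the group. Gdap1, Ighm, Pld5 and Myhas, the antisense transcript described above, were also among the 10 lowest. The 20 genes lay on the same side of 0 in both libraries, as the ranking required, and the plot of these ratios shows all but 1 of them.

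**Figure D3:**
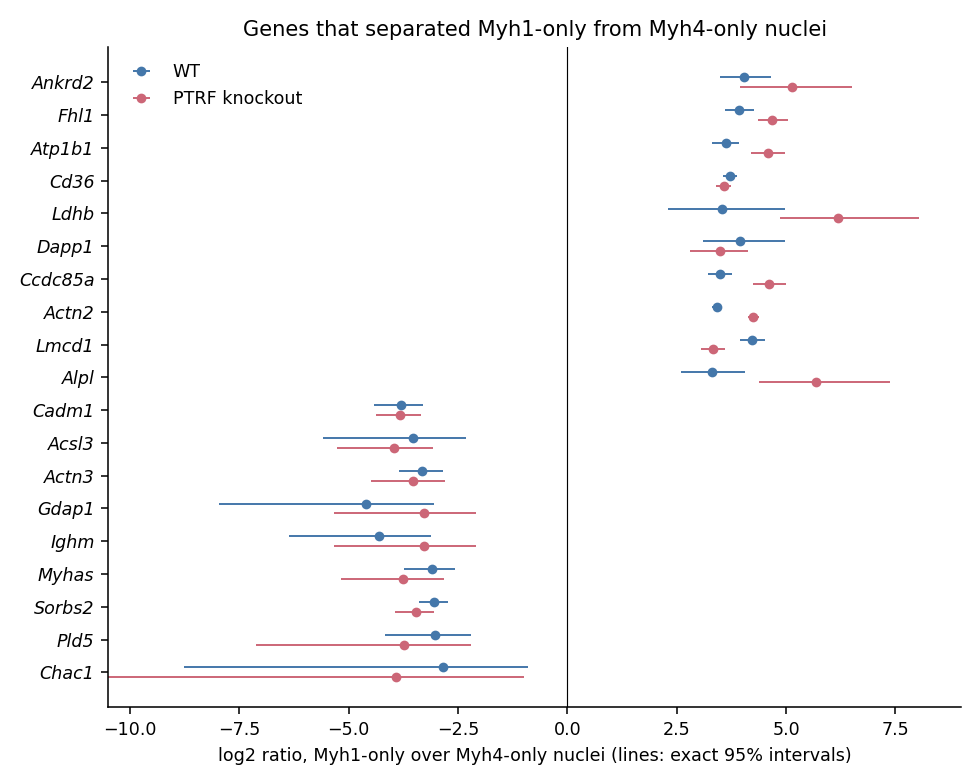
Log2 ratios of Myh1-only over Myh4-only nuclei (x axis) for the 10 highest and 9 of the 10 lowest genes, in WT and in the knockout. Points include 0.5 UMI added to each sum, lines are exact 95% intervals and run off the axis where a sum was 0, and Ankrd2 at the top has values of 4.05 and 5.13.

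By function, 18 of 46 measured genes of oxidative phosphorylation were higher in Myh1-only than in Myh4-only nuclei and 0 were lower. Examples were the citrate cycle enzyme Ogdh (734 against 316 CPM in WT, 649 against 317 CPM in the knockout) and the complex II subunit Sdhb (109 against 42.6 CPM, 79.7 against 31.0 CPM). Of 24 measured genes of fatty acid use, 11 were higher and 0 lower. They included lipoprotein lipase, Lpl, at 305 against 41.2 CPM and 455 against 27.9 CPM, and the receptor Ppara, at 566 against 68.2 CPM and 529 against 23.7 CPM. Among fast contractile genes 0 of 15 were higher and 9 were lower, such as the calcium buffer Pvalb (70.1 against 560 CPM, 88.2 against 385 CPM) and the thick filament protein Mybpc2 (268 against 1141 CPM, 176 against 938 CPM). Slow contractile genes were higher in 4 of 6 and lower in 0, and genes of the giant proteins and the M-band were higher in 8 of 21 and lower in 2. Glycolysis and glycogen genes divided, with 4 of 26 higher and 7 lower. The branching enzyme Gbe1 was higher (1189 against 329 CPM, 1193 against 257 CPM) and Pfkfb3, which makes an activator of glycolysis, was lower (82.6 against 1133 CPM, 185 against 1664 CPM).

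Regulators of fibre type divided as well. Of 29 measured, 5 were higher and 4 lower in Myh1-only nuclei. The higher ones were the oestrogen-related receptors Esrrg (2619 against 446 CPM, 2784 against 133 CPM), Esrrb (122 against 13.8 CPM, 108 against 2.67 CPM) and Esrra, with their coactivators Ppargc1a (631 against 181 CPM, 586 against 186 CPM) and Ppargc1b. The lower ones were Maf (294 against 747 CPM, 453 against 1380.0 CPM), a large Maf factor that drives Myh4, and Eya4, Sox6 and Bhlhe41. In the insulin list 5 of 20 genes were higher and 1 lower, with the Rab regulator Tbc1d1 at 947 against 400.0 CPM and 1321 against 323 CPM. Caveola genes were higher in 3 of 5 and lower in 0, namely Cavin4, Ehd4 and Pacsin2. The other lists had at most 3 genes called in a direction, from 0 to 1 higher and from 0 to 3 lower.

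Differences from type IIa nuclei were fewer at the depth available. Of 3434 genes measured against Myh2-only nuclei, 112 (3.26%) were called in both libraries, 50 (1.46%) higher and 62 (1.81%) lower. Mylk4, a kinase of the myosin light chain kinase family, was at 1983 CPM in Myh1-only and 510.3 CPM in Myh2-only nuclei of WT, and at 2838 and 555 CPM in the knockout. In Myh4-only nuclei it was at 6069.6 and 9600.2 CPM, so that Myh1-only nuclei stood between the other 2 kinds in both libraries. Mybpc2 and Maf had the same order, with Mybpc2 at 91.7 and 10.2 CPM and Maf at 106 and 91.6 CPM in Myh2-only nuclei. Psd3, Kmt5a and the lipase coactivator Abhd5 were the other genes ranked higher. On the other side, the muscle LIM protein Csrp3 was at 26.5 and 11.4 CPM in Myh1-only against 138 and 102 CPM in Myh2-only nuclei. Col23a1, Fxyd6, Pdlim1, Rp1 and Myom3 completed that group, and Myom3 was at 416 and 382 CPM in Myh2-only nuclei against 42.1 and 102 CPM.

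Between genotypes, Prune2, Irs2, Runx1 and Scn2a were among the genes that rose most in knockout Myh1-only nuclei, and Pdk4, Hrc, Tnnt3 and Fkbp5 among those that fell most. Of 4847 genes with at least 20 UMIs over both libraries, 789 (16.3%) were called, 533 (11.0%) higher and 256 (5.28%) lower in the knockout. The median log2 ratio of all genes tested was 0.13. Median ratio scaling moved it by -0.22, to a split of 266 higher and 476 lower, and leaving the most abundant transcripts out of the totals moved it by -0.12, to 369 and 366. With each nucleus thinned to 500 UMIs the split was 140 and 40, and among Y-marked nuclei 324 and 162. The direction of small differences therefore depends on the scaling, whereas the 24 ranked genes below were called under both.

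Prune2 had the most UMIs of the 12 genes ranked highest. It was at 118 CPM in the WT and 1116 CPM in the knockout library, a log2 ratio of 3.23 (2.88 to 3.61), and was detected in 43 of 444 and 102 of 177 nuclei. The insulin receptor substrate Irs2 was at 53.0 and 293 CPM (2.45, 1.90 to 3.07). Runx1, a transcription factor known to rise in denervated muscle, was at 9.35 CPM from 6 UMIs in WT and at 145 CPM from 51 UMIs in the knockout (3.86, 2.74 to 5.47). Glis3, a zinc finger factor, was at 12.5 and 216 CPM. The efflux transporter Abcg2 was at 46.7 and 384 CPM, the adhesion gene Pcdh7 at 20.3 and 202 CPM and the phosphodiesterase gene Pde10a at 68.6 and 376 CPM. These last 3 had ratios in Myh4-only nuclei that the intervals did not separate from those in Myh1-only nuclei.

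For the other 9 of the 12, the interval of the difference from Myh4-only nuclei excluded 0. Of all 12, 8 also had an interval above 0 in Myh4-only nuclei. Among the 9, Prune2, Glis3, Runx1, Cyfip2 and Irs2 rose there too, but less, with log2 ratios of 2.08, 2.09, 1.49, 1.36 and 1.06. Scn2a, a sodium channel best known from neurons, went from 7.79 to 176 CPM in Myh1-only nuclei but stood at 5.29 and 3.67 CPM in Myh4-only nuclei, a difference in log2 ratio of 4.91 (3.37 to 6.45). The calcium channel gene Cacna1a went from 12.5 to 148 CPM, against 19.7 and 7.34 CPM. Asap2, which regulates Arf proteins, went from 9.35 to 165 CPM, against 11.2 and 9.68 CPM. Cyfip2, a part of the WAVE complex of actin assembly, went from 3.12 CPM (2 UMIs) to 148 CPM (52 UMIs), and the phosphatase gene Ppm1e from 3.12 CPM (2 UMIs) to 82.5 CPM (29 UMIs). Of the Ppm1e UMIs in the knockout, 79.3% lay in 5 nuclei. In Myh2-only nuclei all 12 genes also stood higher by CPM in the knockout. Scn2a was there at 22.9 and 575 CPM, Asap2 at 45.9 and 280.0 CPM and Cyfip2 at 31.5 and 209 CPM. Prune2 went from 126 to 1319 CPM there, Glis3 from 17.2 to 219 CPM, Runx1 from 17.2 to 193 CPM and Irs2 from 138 to 199 CPM. All 12 were higher in Y-marked nuclei of the knockout than in Y-marked nuclei of WT by the point estimate, and the interval excluded no difference for 11. The exception was Cyfip2, with 1 UMI in each of these groups and 22 in the Xist-marked knockout nuclei.

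Among the 12 genes ranked lowest, Pdk4, the kinase that shuts off pyruvate oxidation, went from 404 to 82.5 CPM, a log2 ratio of -2.27 (-2.90 to -1.73). This was a larger fall than in Myh4-only nuclei (198 to 96.6 CPM), with a difference of -1.23 (-1.81 to -0.66). Hrc, a calcium-binding protein of the sarcoplasmic reticulum, went from 229 to 42.7 CPM (-2.38, -3.30 to -1.65). Tnnt3, fast troponin T, went from 2895 to 911 CPM (-1.67, -1.84 to -1.50), and Cmss1 from 2496 to 746 CPM. The glucocorticoid-induced genes Fkbp5 and Arrdc2 went from 103 to 11.4 CPM and from 179 to 17.1 CPM. For 10 of the 12 genes, all but Erbb4 and Pdk4, the interval of the difference from Myh4-only nuclei included 0. All 12 intervals lay below 0 in Myh4-only nuclei as well, which the plot of ranked genes shows beside the Myh1-only values. Those 10 genes also stood lower in the knockout among nuclei with at least 2 UMIs of the excluded genes. There Tnnt3 went from 1537 to 281 CPM, Cmss1 from 2886 to 934 CPM and Hrc from 147 to 13.8 CPM. Erbb4 (278 to 565 CPM) and Pdk4 (85.1 to 158 CPM) stood higher there. The part of free RNA in the ranked falls was not tested.

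Other ranked falls were in genes better known from neurons. Lrp1b, a lipoprotein receptor, went from 68.6 to 5.69 CPM, Cntn5 from 51.4 to 2.85 CPM and Nrxn3 from 45.2 to 2.85 CPM. The last 2 rested on 1 knockout UMI each. Dpp10, an auxiliary subunit of potassium channels, had 30 UMIs in WT and 0 in the knockout, at least 5.47-fold lower with the floor of 3 UMIs. Erbb4, a neuregulin receptor, had 91 UMIs in WT (142 CPM) and 3 in the knockout (8.54 CPM), a log2 ratio of -3.84 (-6.36 to -2.46). In the knockout nuclei that only the Nr4a clause had removed, Erbb4 was at 98.6 CPM, and after thinning to 500 UMIs its ratio was 0.75. Transcripts that mark repeat-led nuclei (Gm10800, Gm10801, Chl1 and Csmd3) summed to 173 CPM in WT and 25.6 CPM in knockout Myh1-only nuclei, and their part in these falls was not tested. The 12 lowest genes had a median length of 351 kb and the 12 highest 238 kb. Both medians lay within the longest of 5 groups of tested genes by length, which began at 121 kb. The middle group had a median of 50.7 kb.

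**Figure D4:**
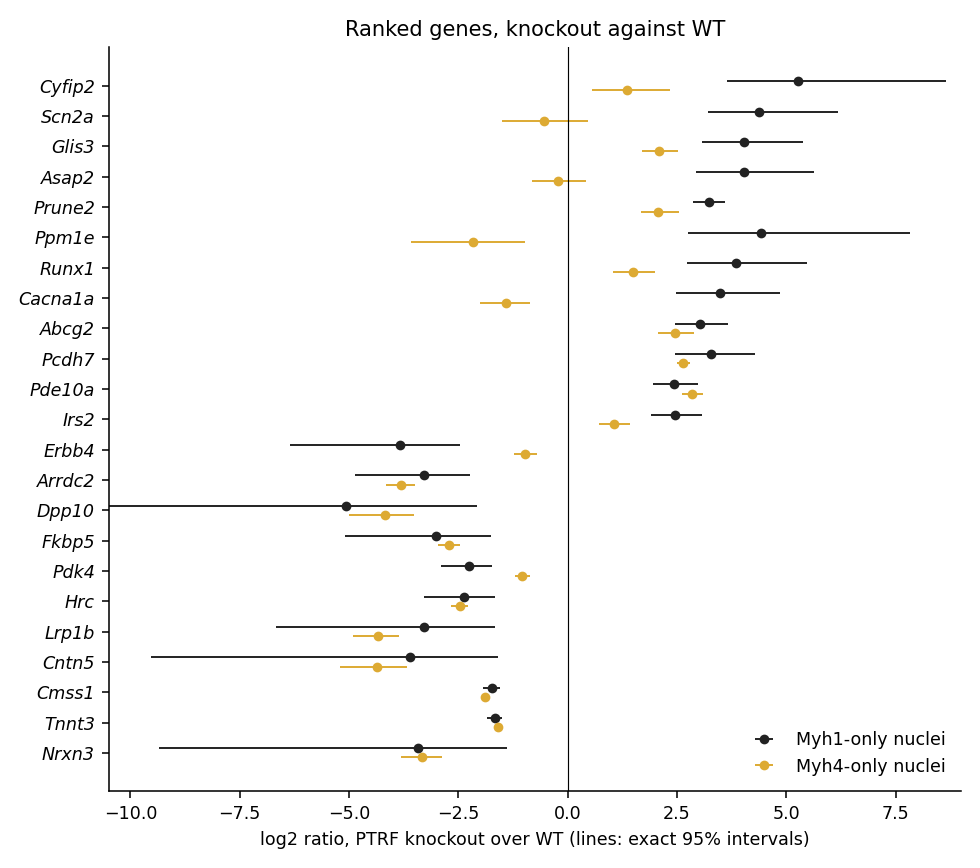
Log2 ratios of knockout over WT (x axis) for the 12 highest and 11 of the 12 lowest ranked genes, in Myh1-only nuclei and in Myh4-only nuclei. Points include 0.5 UMI added to each sum, lines are exact 95% intervals, and Scn2a, Asap2, Ppm1e and Cacna1a lie above 0 in Myh1-only but not in Myh4-only nuclei.

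Lists of related genes, chosen with earlier results of these data known, are described by how many of their measured members were called between genotypes, beside 11.0% higher, 5.28% lower and a median of 0.13 over all genes. Counts under median ratio scaling stand beside another background, 266 of 4847 genes higher and 476 lower, so more falls are called there in any list. Fatty acid genes fell in 6 of 21 and rose in 0, with a median log2 ratio of -0.45. Besides Pdk4 these were the fatty acid binding protein Fabp3 (57.6 to 14.2 CPM, 37 and 5 UMIs), the carnitine carrier Slc25a20 (70.1 to 22.8 CPM), Etfdh (98.2 to 34.2 CPM), Hadha (189 to 88.2 CPM) and the lipid droplet protein Plin4 (132 to 82.5 CPM). The log2 ratios of Hadha and Etfdh lay below those in Myh4-only nuclei, with differences of -0.98 (-1.61 to -0.36) and -1.16 (-2.12 to -0.19), and that of Plin4 lay above, with a difference of 0.99 (0.33 to 1.64). Median ratio scaling raised the count to 11 lower. Of 32 oxidative phosphorylation genes measured, 0 were called in either direction, with a median of -0.11, and under median ratio scaling 2 were lower. Glycolysis and glycogen genes had 3 of 24 higher and 1 lower. Ldha rose from 24.9 to 82.5 CPM, Pfkfb3 from 82.6 to 185 CPM and Pgm1 from 213 to 324 CPM, whereas Aldoa fell from 176 to 102 CPM. Under median ratio scaling Pgm1 was no longer called and the split was 2 higher and 6 lower.

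Contractile genes moved in part. Fast genes fell in 4 of 15, namely Tnnt3, Mylpf (51.4 to 22.8 CPM), Tpm1 (1162 to 746 CPM) and Mybpc2 (268 to 176 CPM). Myh4, which the rule limited, stood at 190 CPM in WT and 37.0 CPM in knockout Myh1-only nuclei (122 and 13 UMIs). The part of type IIb transcripts in these falls was not tested. Slow genes rose in 2 of 5. Myoz2, a Z-disc protein of slow fibres, went from 35.8 to 122 CPM, and Myom3, an M-band protein, from 42.1 to 102 CPM. In Myh4-only nuclei both went the other way, from 5.29 to 1.33 CPM and from 8.23 to 3.17 CPM. The median of the slow list, 0.47, became -0.059 without the limit on Nr4a UMIs. Giant and M-band genes fell in 5 of 21 and rose in 1. The falls were in Xirp2 (1701 to 814 CPM), Flnc (820 to 316 CPM), Ankrd23 (90.4 to 17.1 CPM), Ankrd2 (167 to 54.1 CPM) and Pdlim5 (2398 to 1506 CPM), proteins of the Z-disc, of myotendinous junctions and of the sensing of load. Median ratio scaling raised the count to 8 lower. Markers of the myotendinous junction summed to 122 CPM in the WT and 48.4 CPM in the knockout library, and their part in these falls was not tested. Xirp2 was at 923 and 1096 CPM in Myh4-only nuclei, a difference in log2 ratio of -1.31 (-1.51 to -1.11). Excitation-contraction coupling genes rose in 3 of 17 and fell in 2. The calcium channel subunit Cacng1 rose from 45.2 to 128 CPM, and Hrc and the release channel Ryr1 (3314 to 2061 CPM) fell. Jph2 and Kcnj2 rose by CPM but were not called under median ratio scaling, which also turned the list's median from 0.15 to -0.06.

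Among genes that link the fibre to its surroundings more were called higher than lower, as also over all genes (11.0% and 5.28%). The dystrophin complex and laminin list rose in 7 of 17 and fell in 0, with a median of 0.44. Utrn, the paralogue of dystrophin, went from 34.3 to 105 CPM (22 and 37 UMIs), laminin Lama2 from 118 to 319 CPM and Itgb1 from 68.6 to 139 CPM. Dmd (16068 to 25940.3 CPM), Sgca and Sgcd were among the other 4, and these 4 were not called under median ratio scaling, which left 3. Utrn had a log2 ratio of -0.90 in Myh4-only nuclei. It stood at 1021 and 1320.0 CPM in nuclei with at least 2 UMIs of the excluded genes. Of the 37 Utrn UMIs in the knockout 59.5% lay in 5 nuclei. Membrane repair genes rose in 3 of 7 and fell in 0 (median 0.74). These were Ahnak (54.5 to 145 CPM), Anxa6 (70.1 to 139 CPM) and the muscular dystrophy gene Ano5 (366 to 700.2 CPM). Of the denervation list 3 of 6 rose and 2 fell. With Runx1, the adhesion molecules Ncam1 (12.5 to 91.1 CPM) and Cdh13 (1137 to 3182 CPM) rose, and Dach2 (145 to 51.2 CPM) and Cntn4 (39.0 to 5.69 CPM) fell. Ncam1 had a log2 ratio of -0.39 in Myh4-only nuclei. The median of this list, 0.74, was -0.027 in Y-marked nuclei. Markers of the neuromuscular junction stood at 128 and 125 CPM. No caveola gene was called among the 4 measured, which included the muscle coat protein Cavin4 (43.6 and 51.2 CPM, 0.25, -0.71 to 1.14). Ehd4, a protein of the caveola neck, was at 67.0 and 37.0 CPM (-0.82, -1.88 to 0.07) and was called lower under median ratio scaling and with totals that left out abundant transcripts.

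Growth and atrophy genes moved both ways. The ubiquitin ligases of muscle atrophy, Fbxo32 and Trim63, rose from 647 to 1161 CPM (0.84, 0.64 to 1.05) and from 453 to 939 CPM (1.05, 0.82 to 1.28). In Myh4-only nuclei they were at 1102 and 745 CPM and at 651 and 587 CPM, so that the ratios differed by 1.41 (1.20 to 1.62) and 1.20 (0.96 to 1.44). Among Y-marked nuclei the differences were 1.11 (0.80 to 1.43) and 1.58 (1.24 to 1.91). The Y-marked ratio of Fbxo32 alone was 0.33 (0.01 to 0.63), and the gene stood at 844 CPM in Y-marked and 1974 CPM in Xist-marked knockout nuclei. Foxo1, the transcription factor that induces both ligases, fell from 433 to 128 CPM. In all, 3 of 14 atrophy genes rose, the third being Eda2r (17.1 to 65.5 CPM), and 2 fell, the second being Ubr4 (122 to 71.2 CPM). The insulin list rose in 4 of 17 (among them Irs2, Irs1 and Igf1r, the last not under median ratio scaling) and fell in 2, Grb10 (48.3 to 17.1 CPM) and Pik3r1 (227 to 139 CPM). Irs1 went from 171 to 461 CPM, a smaller rise than in Myh4-only nuclei (206 to 1361 CPM, difference -1.29, -1.66 to -0.93).

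Of 13 glucocorticoid-responsive genes 4 fell and 2 rose. Fkbp5, Arrdc2, Zbtb16 (4042 to 1474 CPM) and Pik3r1 fell, whereas the receptor gene Nr3c1 rose from 229 to 546 CPM and Per1 from 24.9 to 76.8 CPM. The median of this list was 0.07 and became -0.15 under median ratio scaling. Among 15 clock genes Per1 and the repressor Bhlhe40 (23.4 to 137 CPM) rose and the activator Arntl (85.7 to 39.8 CPM) fell, shares near those over all genes. Of 27 fibre type regulators 7 rose and 1 fell. The cofactor Vgll2 rose from 6.23 to 48.4 CPM (4 and 17 UMIs), Nfatc2, which carries the slow nerve signal, from 82.6 to 199 CPM, Eya4 from 312 to 697 CPM and Hdac9 from 287 to 638 CPM. Nfix, Ppargc1b and Maf rose by CPM but not under median ratio scaling. Sphingolipid genes rose in 3 of 7 (2 under median ratio scaling), with sphingomyelin synthase 2, Sgms2, at 3 UMIs in WT and 18 in the knockout, a log2 ratio of 3.27 (1.68 to 5.86). Of the 3 mitochondrially encoded genes measured mt-Nd2 was higher, from 6 and 15 UMIs. The immediate early and heat shock list had 1 gene with 20 UMIs, not called, and the interferon list had 0.

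**Figure D5:**
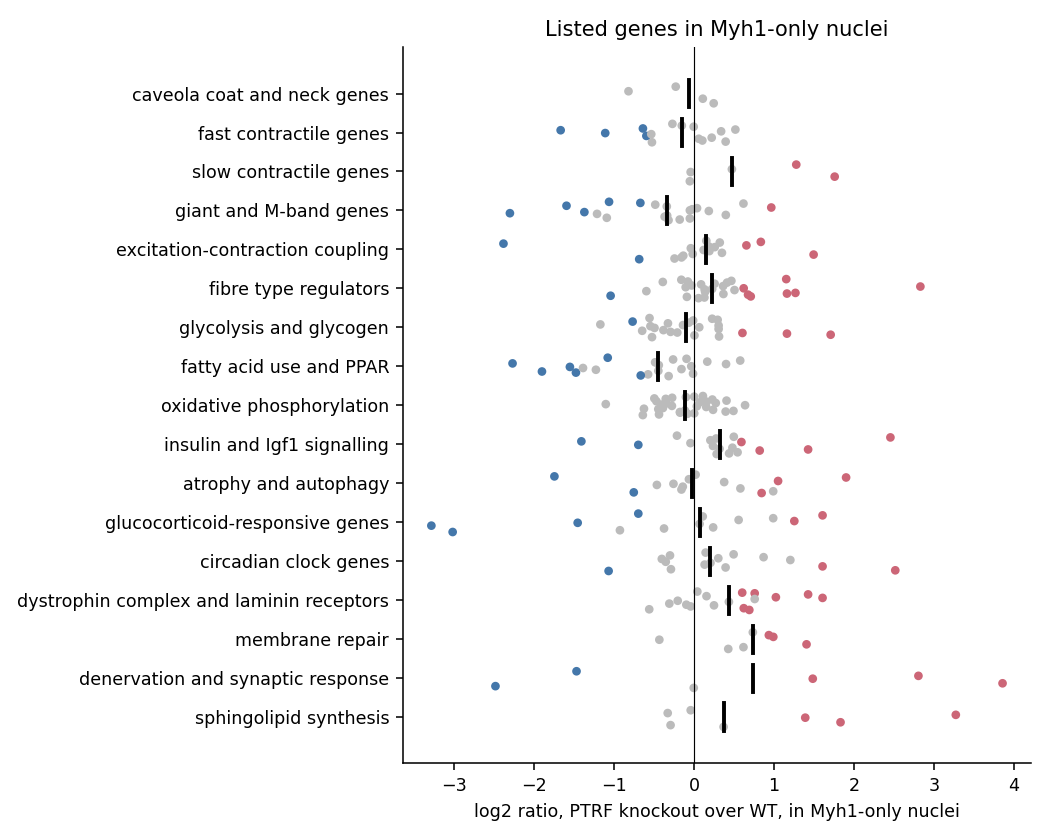
Log2 ratios of knockout over WT in Myh1-only nuclei (x axis) for every gene with at least 20 UMIs in the lists that had at least 4 such genes. Red points were called higher, blue points lower, grey points not called, and black bars are list medians, from -0.45 for fatty acid use to 0.74 for membrane repair and denervation.

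Set beside Myh4-only nuclei over all genes, the genotype difference was in part shared and in part not. In Myh4-only nuclei 30.5% of 11821 tested genes were called, 11.1% higher and 19.3% lower. In Myh1-only nuclei the share was 16.3% of 4847 genes. Myh4-only sums were 3400226 (WT) and 5992884 UMIs (knockout), against 641836 and 351345 UMIs in Myh1-only nuclei. Because genes and depth differed, these shares do not tell in which kind the genotype difference was larger. Of 4833 genes measured in both kinds, 340 were called in the same direction and 27 in opposite directions. The interval of the difference in log2 ratio lay above 0 for 592 genes and below 0 for 412. The median log2 ratio in Myh4-only nuclei was -0.02. By gene length, the median ratio in Myh1-only nuclei was 0.02 in the shortest of 5 groups of genes and 0.18 in the longest.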

How the data were processed

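Nuclei of quadriceps were profiled in 1 library per genotype, and each library's file holds whole-number UMI counts per gene and nucleus barcode, which the authors deposited. Cell Ranger 6.0.0 made the matrices, per the file headers, and the submitters' processing notes name Cell Ranger, STAR, Seurat 4.1.1, mm10 and GRCm38. Use of introns and strand, and the annotation release, were not given in the sources used here. Of 53700 features 52093 matched GENCODE M21 by ID.

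UMIs were summed over the nuclei of each kind and library and divided by their total. Ratios have 0.5 UMI added and exact conditional 95% intervals, and a gene was tested with 20 UMIs over the compared sums. The interval of a difference between 2 ratios is a normal one on the log scale from the 4 summed counts. Nuclei of 1 library are no replicates, and the genotypes were compared without a test or p-value. The members of the set and all gene lists were chosen with earlier results of these data known.

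Genes named between genotypes had at least 30 UMIs and an interval beyond 1.5-fold, and were ranked by the bound nearest 0 (12 each way). Against Myh4-only (10 each way) and Myh2-only nuclei (6 each way), genes called in both libraries were ranked by the smaller of the log2 ratios. Rule genes were left out of each ranking. So were genes below 0.25 of their level in nuclei with at least 2 UMIs of the excluded genes, in the library where the gene was higher. Of the 56 named genes 18 overlap another gene on the same strand and 15 on the opposite strand only, so their UMIs may be shared. No doublet caller was run and doublets stayed in. The deepest 5% of nuclei were left out as an alternative, and 5 knockout members carried both Xist and Y-linked UMIs. A few genes that met these rules are not reported here but stay in the counts. The calculations were tested on simulated data. Python 3.11.15, numpy 2.4.6, scipy 1.17.1, pandas 2.3.3 and matplotlib 3.10.9 were used.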

Additional observations from a re-analysis of the deposited data

Results flagged for a closer look

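Among the ranked and listed genes described here, 6 were called between genotypes in opposite directions in Myh1-only and Myh4-only nuclei, with an interval of the difference that excluded 0. Over all genes 27 were called in opposite directions. With 1 library per genotype these differences were not tested across animals. The log2 ratios of the slow-fibre genes Myoz2 (1.76 in Myh1-only and -1.94 in Myh4-only nuclei) and Myom3 (1.28 and -1.37) differed by 3.70 and 2.64. For Utrn the ratios were 1.61 and -0.90, a difference of 2.50. Cacna1a had 3.50 and -1.42, a difference of 4.91, and Ppm1e had 4.43 and -2.16, a difference of 6.59. The transcription factor gene Ebf1 had 0.76 and -1.20, a difference of 1.95. Of the Ebf1 UMIs in knockout Myh1-only nuclei, 83.8% lay in 5 nuclei, and among Y-marked nuclei its difference was 0.29 (-1.05 to 1.63).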

How the results depend on the processing

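No paired analysis was possible because there was 1 library per genotype, and for the same reason no replicate could be left out. Of 119 recomputed comparison values 88 stayed within their tolerance, which was wide for counts of genes. Leaving abundant transcripts out of the totals, for example, changed 533 genes higher and 256 lower between genotypes to 369 and 366. Both counts were still within tolerance, although the excess of higher genes was nearly gone. The share of Myh1-only nuclei was 4.12 points lower in the knockout as defined (a difference of -4.12). This difference was -7.62 with at least 5 isoform UMIs, -2.18 with an isoform share of 100%, -6.12 with at least 500 genes, -0.47 after thinning to 500 UMIs, -1.43 without the Nr4a limit, -8.02 in Y-marked nuclei and -2.04 as a share of all nuclei. Thinning, which leaves fewer UMIs, gave 140 genes higher and 40 lower between genotypes, 128 and 101 against Myh4-only nuclei, 13 and 7 against Myh2-only nuclei and 22 and 9 listed genes. After thinning the interval of the difference from Myh4-only nuclei excluded 0 for 6 ranked genes instead of 11, and the log2 ratio of Erbb4 was 0.75. Y-marked nuclei gave 324 higher and 162 lower between genotypes and 32 and 37 against Myh2-only nuclei, and a median of -0.027 for the denervation list. Median ratio scaling gave 266 higher and 476 lower between genotypes and 47 listed genes lower. A minimum of 50 UMIs left 145 genes lower. An isoform share of 100% left 31 genes lower against Myh2-only nuclei. The median of the slow list was -0.059 without the Nr4a limit and -0.047 with a minimum of 1 UMI. Without any UMI of the wider non-muscle markers, an alternative chosen after seeing the data, 133 genes were lower between genotypes, 311 higher and 221 lower against Myh4-only nuclei, 26 and 33 against Myh2-only nuclei, and 18 listed genes lower.

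The limit of 1% on mitochondrially encoded UMIs and the removal of the 5 nuclei richest in a gene were also chosen after seeing the data. Without those 5 nuclei all 24 ranked genes kept their sign. Of 384 recomputed values of ranked genes 347 stayed within tolerance, 36 moved and 1, the thinned Erbb4, changed sign. Of 255 list medians 224 stayed within 0.25 of the value as defined. A further 28 were counted as moved and 3, the values of the slow and denervation lists given above, as reversed. Other medians near 0 also changed sign but were not counted as reversed. After thinning, for example, the clock list went from 0.21 to -0.24 and the oxidative phosphorylation list from -0.11 to 0.41. The causes were not tested. The mean of CPM over nuclei gave no counts of calls and was run for single genes only. Genes with fewer than 20 UMIs were not compared.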

Other observations

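The 5 genes Cyfip2, Scn2a, Asap2, Ppm1e and Cacna1a, a set chosen after their values were seen, were found together in few nuclei. In the knockout 13 of 177 Myh1-only nuclei carried at least 3 of the 5, and these nuclei held 122 of the set's 253 UMIs at a median depth of 3122 UMIs. Among the 13 nuclei 4 were Xist-marked and 2 Y-marked. In WT 0 of 444 Myh1-only nuclei carried 3 of the genes. Such nuclei numbered 0 of 2976 in WT and 1 of 2526 in the knockout among Myh4-only nuclei, and 1 of 236 and 11 of 102 among Myh2-only nuclei.

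The 178 knockout nuclei that met every clause but the Nr4a limit had a median of 2372 UMIs. Irs2 was at 438 CPM in them against 293 CPM in the Myh1-only nuclei of the knockout, a log2 ratio of 0.57 (0.23 to 0.93). Erbb4 was at 98.6 CPM against 8.54 CPM, a log2 ratio of 3.32 (1.90 to 5.86). Abcg2 stood lower in the nuclei left out, with a log2 ratio of -0.60 (-0.97 to -0.24), as did Cyfip2, with -1.03 (-1.70 to -0.40).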
